A study of Mus musculus with 18 samples.

Results

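The homologous recombination and DNA damage checkpoint genes described here are a named list of 41 genes that repair broken DNA or halt the cell cycle while it is repaired. All 41 were found by symbol among the 15402 rows of the deposited table, and all 41 had a mean log2 value of at least 3, the limit below which genes were not tested. The rule picks genes by name and function and uses no measured value, although the list was drawn up with earlier results of these data known.

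The RNA came from CD4+ T cells of female C57/BL6 mice that carried both Foxp3Timer (Foxp3-Tocky) and Foxp3-IRES-GFP, and all of the mice had 3% oxazolone put on the abdominal skin 5 days before the draining lymph nodes were taken. The age of the mice is not given in the labels. Timer is a fluorescent protein driven by Foxp3 regulatory sequence that is blue when new and turns red, so its colours give the recent and the past transcription of Foxp3, the transcription factor of regulatory T cells (Treg). GFP- Timer- cells were sorted by CD44 into naive cells (Tnaive, CD44lo) and activated effector cells (Teff, CD44hi). Timer+ cells were sorted by both colours. Pers1 had intermediate Blue and low Red and Pers2 was high in both, and these have persistent Foxp3 transcription. PAt was low in Blue and high in Red, and Arrested had no Blue and intermediate Red. Each of the 6 populations has 3 libraries, 18 in all, each from a pool of 3 mice. No untreated mice are among the samples, and every population saw oxazolone. The Timer gates follow Foxp3 promoter activity, so the 4 Timer+ populations are positions in a colour plane. Whether they differ in lineage was not tested.

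A double-strand break is repaired by homologous recombination when its ends are cut back to single strands, which then, with the help of BRCA2, pair with an intact copy. The sister chromatid is that copy, so the pathway works in S and G2 phase. Many of its genes are transcribed mainly in dividing cells, through E2F and other cell cycle factors. The Fanconi pathway feeds crosslinks between DNA strands into the same repair. The kinases ATM and ATR sense breaks and stalled replication forks, and pass the signal on to CHK2 and CHK1. T cells divide rapidly after activation, and lymphocytes also break and rejoin their antigen receptor genes during development, largely by end joining.

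Values are log2 normalised counts as the authors deposited them, and fold changes are differences between population means on that scale, with the standard error (SE) from limma. A gene is called where the Benjamini-Hochberg adjusted p over all 13190 genes tested is under 0.05 and the log2 fold change is over 1 in size. In bulk RNA, a larger share of dividing cells and more RNA per cell cannot be told apart. Foxp3 separated Timer+ from Timer- cells, at between 14.36 and 14.85 in the 12 Timer+ libraries and between 10.38 and 11.38 in the 6 Timer- libraries. Within the Timer+ libraries it overlapped, at 14.56 to 14.85 in Pers1 and Pers2 and 14.36 to 14.65 in PAt and Arrested. Mki67, a marker of dividing cells, was between 14.41 and 14.62 in Pers1 and Pers2, between 12.59 and 12.69 in Teff, between 11.46 and 11.76 in PAt and Arrested, and between 8.46 and 8.50 in Tnaive. The summed log2 level of the 6 T cell markers was between 16.8 and 17.3 in every library.

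Transcription start regions are shown first, since E2F sites are a known feature of genes of this kind. RefSeq windows on GRCm38.p6, from 250 bases before to 50 after a start, were found for 31 of the 41 members. The members without an entry were Rad51d, Xrcc2, Rad54b, Rbbp8, Exo1, Rad50, Nbn, Fancd2, Tipin and H2afx. An E2F-type motif (TTTGGCGC, TTTGCCGC, TTTCGCGC or TTTCCCGC, on either strand) was present in the window of 7 of the 31, 22.6%, against 2.60% of all 27025 genes with a window. It was found in 4 of the 11 members that were called higher in the persistent populations (Bard1, Rad51c, Chek2 and Brca2) and in 3 of the 20 that were not called (Topbp1, Msh6 and Fancg). The CCAAT box (CCAAT on either strand) was in 18 of the 31 members, 58.1%, against 41.1% of all genes. The cell cycle homology region (TTTGAA on either strand) was in 2 of the 31, 6.45%, against 20.2% of all genes. None of these motifs contains another. The 27025 genes with a window include genes that were not tested here, so the shares of members and of all genes come from unlike sets. Of the 6 members with the largest increase, windows were found for Rad54l, Rad51ap1 and Brca1, and none of the 3 holds the E2F-type motif. The 3 most increased members that do hold it were therefore chosen after their values were seen, and are printed with Brca1, which lacks it, and with Atm, which has the lowest fold change of all members. The motif is in capitals and the rest in lower case, and each sequence reads 5′ to 3′ on the strand of its gene.
Bard1 (chr1:71102923-71103222, minus strand): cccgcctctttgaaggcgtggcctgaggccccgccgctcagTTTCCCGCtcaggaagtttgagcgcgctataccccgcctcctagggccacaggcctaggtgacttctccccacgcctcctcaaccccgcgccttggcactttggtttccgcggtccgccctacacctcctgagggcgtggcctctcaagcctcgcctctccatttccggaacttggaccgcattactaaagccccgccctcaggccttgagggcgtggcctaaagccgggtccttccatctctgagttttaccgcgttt
Rad51c (chr11:87404905-87405204, minus strand): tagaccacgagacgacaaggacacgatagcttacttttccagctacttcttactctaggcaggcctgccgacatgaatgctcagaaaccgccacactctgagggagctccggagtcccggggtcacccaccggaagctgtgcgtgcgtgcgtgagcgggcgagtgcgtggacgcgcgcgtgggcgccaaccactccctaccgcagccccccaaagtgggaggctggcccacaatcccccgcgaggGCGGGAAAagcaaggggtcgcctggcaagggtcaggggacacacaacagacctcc
Chek2 (chr5:110839733-110840032, plus strand): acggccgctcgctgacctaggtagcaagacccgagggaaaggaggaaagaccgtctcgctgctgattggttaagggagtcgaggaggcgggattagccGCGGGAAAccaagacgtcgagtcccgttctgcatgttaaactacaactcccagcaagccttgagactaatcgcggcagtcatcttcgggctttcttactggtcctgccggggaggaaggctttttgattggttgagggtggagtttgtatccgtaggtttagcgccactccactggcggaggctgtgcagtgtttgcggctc
Brca1 (chr11:101551906-101552205, minus strand): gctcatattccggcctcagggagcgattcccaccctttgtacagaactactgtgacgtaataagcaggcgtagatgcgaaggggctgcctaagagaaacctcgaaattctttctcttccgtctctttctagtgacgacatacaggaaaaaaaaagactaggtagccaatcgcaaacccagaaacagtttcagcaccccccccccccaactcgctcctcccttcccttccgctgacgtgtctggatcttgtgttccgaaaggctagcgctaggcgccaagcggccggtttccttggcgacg
Atm (chr9:53536622-53536921, minus strand): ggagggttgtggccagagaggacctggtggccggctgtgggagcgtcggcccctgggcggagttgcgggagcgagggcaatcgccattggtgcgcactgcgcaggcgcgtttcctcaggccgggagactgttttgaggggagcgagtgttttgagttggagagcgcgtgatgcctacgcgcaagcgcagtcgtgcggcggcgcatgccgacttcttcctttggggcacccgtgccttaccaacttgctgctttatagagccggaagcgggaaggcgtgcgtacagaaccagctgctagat
Counted from the start, the motif begins at position -209 in Bard1, at -5 from the upstream of 2 starts in Rad51c, and at -152 in Chek2. It lies on the opposite strand in the printed windows of Rad51c and Chek2. The window of the downstream Rad51c start, not printed, also holds one, at position 11 on the strand of the gene. A match of letters is not evidence of binding, and its absence says only that the letters are not in the window.

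The first comparison asks how the genes differ between Treg with persistent Foxp3 transcription (Pers1 and Pers2, 6 libraries) and Treg with little or no Timer-Blue (PAt and Arrested, 6 libraries). Of the 41 members, 17 were called higher in the persistent populations and 0 were called lower, where 4.74% of all genes tested were called higher and 2.77% lower. The median log2 fold change was 0.55 over the members and -0.01 over all genes tested. At an unadjusted p under 0.05 and with no threshold on the fold change, limma had 32 members upwards and 7 downwards, against 36.8% and 36.2% of all genes. In 29 members every persistent library lay above every PAt and Arrested library, a pattern found in 24.0% of all genes, and in 6 members every persistent library lay below, against 21.8% of all genes. The 6 B cell markers summed to 10.5 to 10.8 (log2) in the persistent libraries and to 11.2 to 11.8 in PAt and Arrested. Of the 5 tested, 3 were called lower in the persistent libraries. The 4 CD8 T or NK cell markers summed to 9.79 to 10.3 against 10.5 to 10.7, with 1 called lower (Cd8a, -1.16). Of these 4, 3 had a negative log2 fold change and 1 a positive one. The positive one was Klrb1c (0.61), which was not called. The part of either list of markers in the result was not tested.

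**Figure D1:**
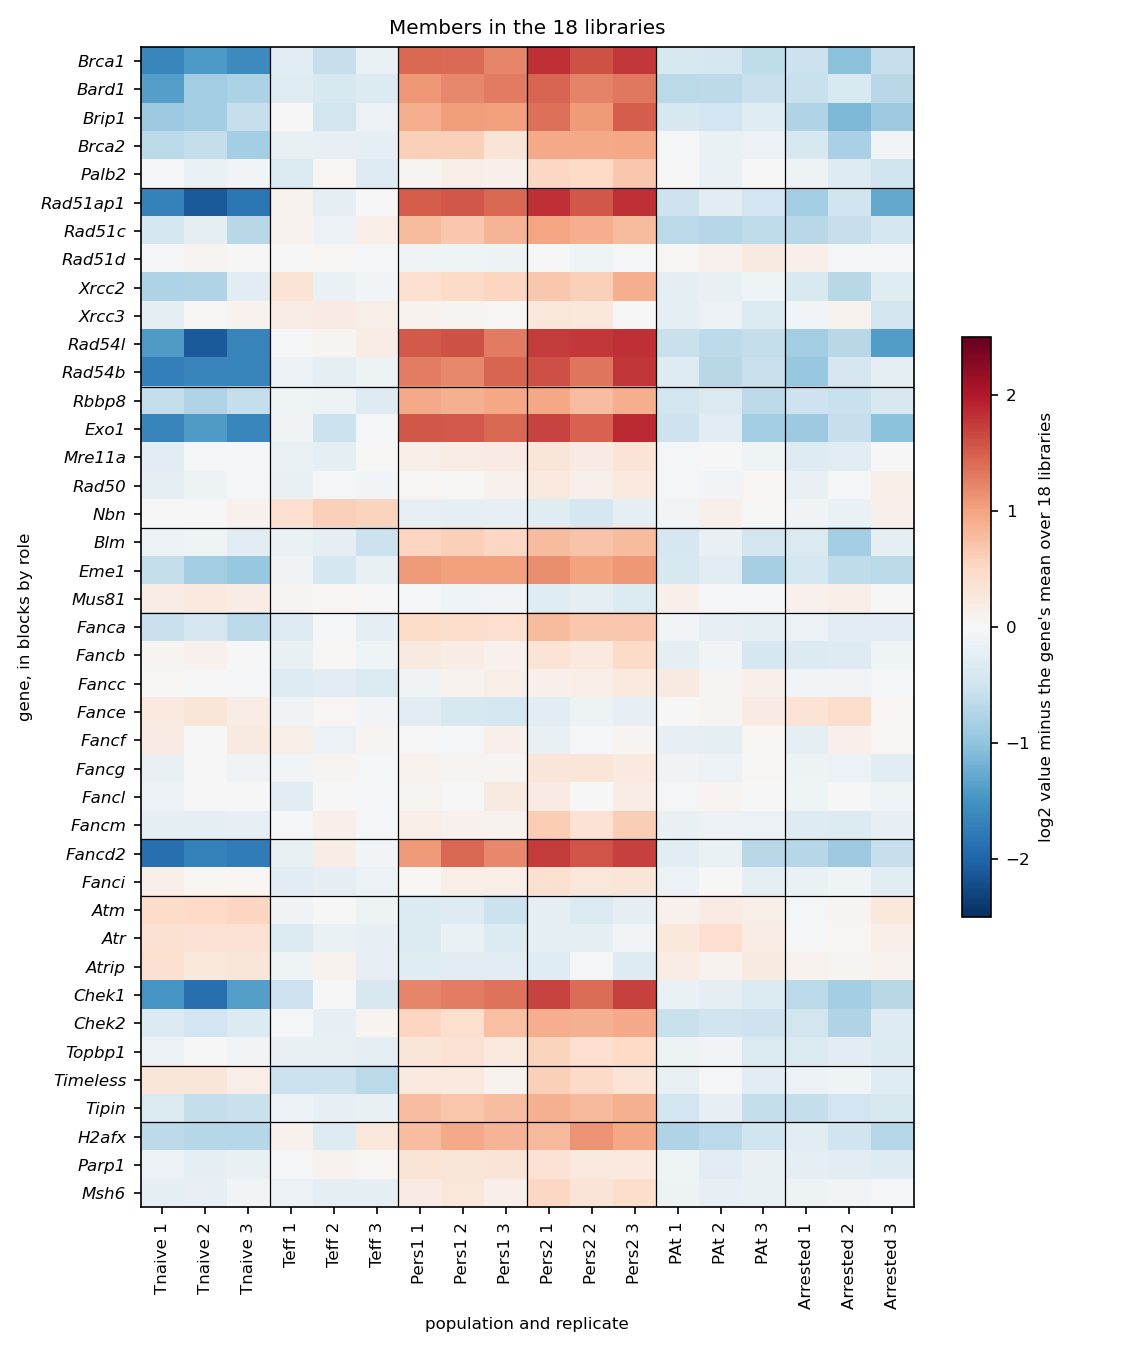
Heat map of the 41 members (rows, in blocks by role) in the 18 libraries (columns, by population and replicate). Colour is the log2 value minus the gene's mean over all libraries, from blue (low) to red (high). The 6 persistent libraries stand out in red for 17 members, while Atm, Atr, Atrip, Fance, Nbn and Mus81 are paler blue in the same libraries.

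Among the BRCA1 and BRCA2 complexes, 4 of 5 members were called higher, against 4.74% of all genes. Brca1, which promotes resection of breaks and carries ubiquitin ligase activity, was between 10.00 and 10.61 in the persistent libraries (median 10.30) and between 7.77 and 8.38 in PAt and Arrested (median 8.24). It was 7.15, 7.35 and 7.19 in Tnaive and 8.50, 8.21 and 8.62 in Teff. The persistent libraries stood above all others, Tnaive below all others, and Teff overlapped with PAt and Arrested. The increase over PAt and Arrested was 4.40-fold, a log2 fold change of 2.14 (SE 0.090, adjusted p = 1.37e-14). Bard1, the obligate partner of BRCA1, rose by 1.85 (SE 0.088). Brip1, a helicase that binds BRCA1, rose by 1.82 (SE 0.095) from a range of 7.25 to 8.08 in PAt and Arrested to 9.28 to 9.89. Brca2, which prepares the single strand for pairing, rose by 1.00 (SE 0.093), just past the threshold, and its call is lost when each library is centred on its median (0.94). It is also lost in 6 of the 12 fits that leave out 1 library of this comparison, with 0.91 without Arrested replicate 2, 0.98 without Pers1 replicate 1 or 2, 0.99 without PAt replicate 2, and just under 1 without PAt replicate 3 or Pers2 replicate 3. Palb2, the bridge between BRCA1 and BRCA2, had a log2 fold change of 0.53 (SE 0.082, adjusted p = 7.64e-06), with no overlap between the groups, and was not called.

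The factors of strand pairing, Rad54l, Rad54b, Rad51ap1, Rad51c, Rad51d, Xrcc2 and Xrcc3, showed the widest spread, with 4 of 7 called higher. Over all genes that share was 4.74%. Rad54l, a motor protein that helps the strand to invade the intact copy, was between 9.15 and 9.66 in the persistent libraries (median 9.51) and between 6.45 and 7.30 in PAt and Arrested (median 7.17). In Tnaive it was 6.43, 5.74 and 6.18, and in Teff 7.80, 7.92 and 8.02. Teff thus lay between the persistent libraries and the rest, and the lowest Arrested library stood just above the highest Tnaive library. Its log2 fold change of 2.42 (SE 0.114, adjusted p = 8.35e-14) was the largest of the 41 members, or 5.34-fold. Exonic sequence of Rad54l overlaps by 15.4% with Lrrc41 on the opposite strand, and whether reads were counted by strand is not stated.

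Rad51ap1, which stimulates strand pairing, was between 8.94 and 9.31 in the persistent libraries (median 9.04) and between 6.21 and 7.20 in PAt and Arrested (median 6.99). Its values were 5.81, 5.40 and 5.69 in Tnaive, and 7.58, 7.24 and 7.48 in Teff. The 4 groups of libraries did not overlap, in the order persistent, Teff, PAt and Arrested, and Tnaive. The log2 fold change was 2.27 (SE 0.112, adjusted p = 1.65e-13). Rad54b, a relative of Rad54l, was between 8.10 and 8.70 in the persistent libraries (median 8.31) and between 5.96 and 6.66 in PAt and Arrested (median 6.42), a log2 fold change of 1.97 (SE 0.108). Tnaive stood well below, at 5.19, 5.26 and 5.23, and Teff, at 6.77, 6.66 and 6.78, stood at the upper edge of PAt and Arrested. Rad54b shares 35.8% of its exonic sequence with Fsbp on the same strand, so its reads cannot be told apart there.

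Rad51c, Rad51d, Xrcc2 and Xrcc3 are paralogs of each other that form complexes which help strand pairing. Rad51c was between 7.52 and 7.84 in the persistent libraries and between 6.13 and 6.44 in PAt and Arrested, and rose by 1.45 (SE 0.086, adjusted p = 3.54e-12). In Tnaive it was 6.41, 6.60 and 6.16 and in Teff 6.93, 6.70 and 7.02. Xrcc2 was between 7.92 and 8.41 against 6.81 to 7.40, with a log2 fold change of 0.92 (SE 0.104), the nearest member under the threshold. The other paralogs differed less. Xrcc3 was between 8.87 and 9.16 against 8.42 to 8.96, a log2 fold change of 0.31 (SE 0.084) with overlapping groups. Rad51d was between 10.40 and 10.53 against 10.50 to 10.75, and had -0.15 (SE 0.044, adjusted p = 0.00368), again with overlap.

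Of the genes of end resection, the nuclease Exo1 and Rbbp8 were called higher, and the 3 genes of the MRN complex, the first sensor of a break, were not. At the shares over all genes, 4.74% higher and 2.77% lower, a set of 3 may well hold no called gene. Exo1 was between 8.62 and 9.06 in the persistent libraries (median 8.74) and between 6.17 and 6.92 in PAt and Arrested (median 6.46). Its Tnaive values were 5.55, 5.77 and 5.56 and its Teff values 7.11, 6.66 and 7.16. The persistent libraries stood above and the Tnaive libraries below all others, with Teff and PAt overlapping, and the log2 fold change was 2.29 (SE 0.113, adjusted p = 1.79e-13), or 4.89-fold. Rbbp8 (CtIP), which starts resection with MRN, rose by 1.40 (SE 0.062). Within MRN, the nuclease Mre11a had a log2 fold change of 0.35 (SE 0.061), the scaffold Rad50 had 0.15 (SE 0.056) and Nbn, which recruits ATM, had -0.26 (SE 0.056, adjusted p = 0.00036). Nbn was between 9.58 and 9.81 in the persistent libraries (median 9.78), between 9.85 and 10.14 in PAt and Arrested (median 9.99), 10.00, 10.00 and 10.11 in Tnaive, and 10.43, 10.60 and 10.56 in Teff. It was thus lowest in the persistent libraries and highest in Teff, with no overlap between these and the other groups.

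Junctions between recombining strands are dissolved by the helicase Blm or cut by the nuclease MUS81-EME1. Blm was between 9.68 and 9.97 in the persistent libraries (median 9.82), between 8.33 and 8.99 in PAt and Arrested (median 8.78), 9.02, 9.07 and 8.90 in Tnaive, and 9.02, 8.94 and 8.65 in Teff. Only the persistent libraries stood apart among these 18, and the log2 fold change was 1.07 (SE 0.089), which came to 0.98 without Arrested replicate 2. Eme1 was between 9.37 and 9.52 (median 9.41) against 7.52 to 8.08 (median 7.82), and rose by 1.61 (SE 0.092, adjusted p = 2.09e-12). Its Tnaive values were 7.77, 7.48 and 7.40 and its Teff values 8.27, 7.95 and 8.18, close to PAt and Arrested. Mus81, the catalytic partner of Eme1, stood lower in the persistent libraries, at 10.36 to 10.65 (median 10.53) against 10.67 to 10.86 (median 10.75), a log2 fold change of -0.24 (SE 0.042). In Tnaive, Mus81 was 10.89, 10.93 and 10.88, above all other libraries, and in Teff 10.76, 10.74 and 10.70.

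In the Fanconi pathway the core complex, which attaches ubiquitin to FANCD2 and FANCI, had 0 of 8 members called in either direction by limma, with a median log2 fold change of 0.22. With 4.74% of all genes called higher and 2.77% lower, 0 of 8 is near the share over all genes. An adjusted p under 0.05 in limma was reached by 6 of the 8, against 70.9% of all genes. Fanca had the highest, 0.77 (SE 0.056), followed by Fancm with 0.55 (SE 0.054) and Fancb with 0.51 (SE 0.079). Fance was the lowest. It was between 8.71 and 9.03 in the persistent libraries (median 8.88), between 9.15 and 9.59 in PAt and Arrested (median 9.29), 9.41, 9.46 and 9.34 in Tnaive, and 9.06, 9.21 and 9.08 in Teff. The persistent libraries lay below all the others and the log2 fold change was -0.47 (SE 0.068, adjusted p = 3.31e-06). The other 4 core genes, Fancc, Fancf, Fancg and Fancl, had log2 fold changes from 0.06 (Fancf) to 0.30 (Fancg). Exons of Fanca, Fancc, Fancf and Fancl overlap by 10.5%, 16.4%, 15.0% and 13.7% with other genes on the opposite strand.

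The substrate pair of that complex split. Fancd2 was between 9.03 and 9.70 in the persistent libraries (median 9.46), between 7.06 and 7.80 in PAt and Arrested (median 7.32), 6.08, 6.26 and 6.22 in Tnaive, and 7.78, 8.15 and 7.89 in Teff. Tnaive lay lowest and the persistent libraries highest, with Teff just meeting the top of PAt. The log2 fold change was 2.01 (SE 0.098, adjusted p = 1.42e-13), a 4.02-fold increase. Fanci, which binds FANCD2 in a clamp around DNA, was between 10.66 and 11.03 (median 10.86) against 10.35 to 10.65 (median 10.47), a log2 fold change of 0.38 (SE 0.050). In Tnaive Fanci was 10.79, 10.67 and 10.69, within the persistent range, and in Teff 10.34, 10.39 and 10.49. Exons of Fanci overlap by 16.0% with Polg on the opposite strand.

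In the checkpoint, the effector kinases were called higher and the apical kinases were not. With 4.74% of all genes called higher and 2.77% lower, most genes tested were not called either. Chek1, the kinase of the ATR branch, was between 9.30 and 9.78 in the persistent libraries and between 7.22 and 7.90 in PAt and Arrested, and rose 3.84-fold, a log2 fold change of 1.94 (SE 0.098, adjusted p = 2.65e-13). Chek2, the kinase of the ATM branch, rose by 1.26 (SE 0.083). Topbp1, which activates ATR, was between 12.54 and 12.85 against 11.93 to 12.22, and had 0.65 (SE 0.045, adjusted p = 3.89e-11) with no overlap, under the threshold. In Tnaive Topbp1 was 12.16, 12.30 and 12.23, and in Teff 12.11, 12.11 and 12.06.

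Atm, Atr and Atrip, the partner of ATR, had 3 of the 4 lowest fold changes of the list. Atm was between 11.73 and 12.02 in the persistent libraries (median 11.92), between 12.20 and 12.53 in PAt and Arrested (median 12.39), 12.71, 12.76 and 12.80 in Tnaive, and 12.17, 12.24 and 12.13 in Teff. The persistent libraries were lowest and Tnaive highest without overlap, and the log2 fold change was -0.47 (SE 0.049, adjusted p = 2.63e-08), a level of 0.722 times that in PAt and Arrested. Atr was between 10.79 and 11.09 (median 10.92) against 11.12 to 11.56 (median 11.33), with 11.53, 11.50 and 11.51 in Tnaive and 10.80, 10.98 and 10.94 in Teff. Its Teff and persistent libraries overlapped below the rest, and the log2 fold change was -0.41 (SE 0.051, adjusted p = 3.48e-07). Atrip was between 9.35 and 9.65 (median 9.39) against 9.74 to 9.91 (median 9.77), 10.08, 9.96 and 9.98 in Tnaive, and 9.57, 9.77 and 9.47 in Teff. Its log2 fold change was -0.37 (SE 0.060), and 16.0% of its exonic sequence is shared with Trex1 on the same strand.

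TIMELESS and TIPIN form a complex that steadies the replication fork and helps to activate CHK1. Tipin rose by 1.26 (SE 0.063, adjusted p = 1.77e-13), while Timeless, between 11.19 and 11.68 (median 11.39) against 10.79 to 11.06 (median 10.93), had 0.51 (SE 0.053). H2afx, the histone variant that is phosphorylated around a break, rose by 1.48 (SE 0.088) from a range of 9.60 to 10.08 to one of 11.12 to 11.47. Parp1, the sensor of nicks, had 0.54 (SE 0.036), and Msh6, a mismatch sensor, had 0.44 (SE 0.043), both without overlap and under the threshold.

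**Figure D2:**
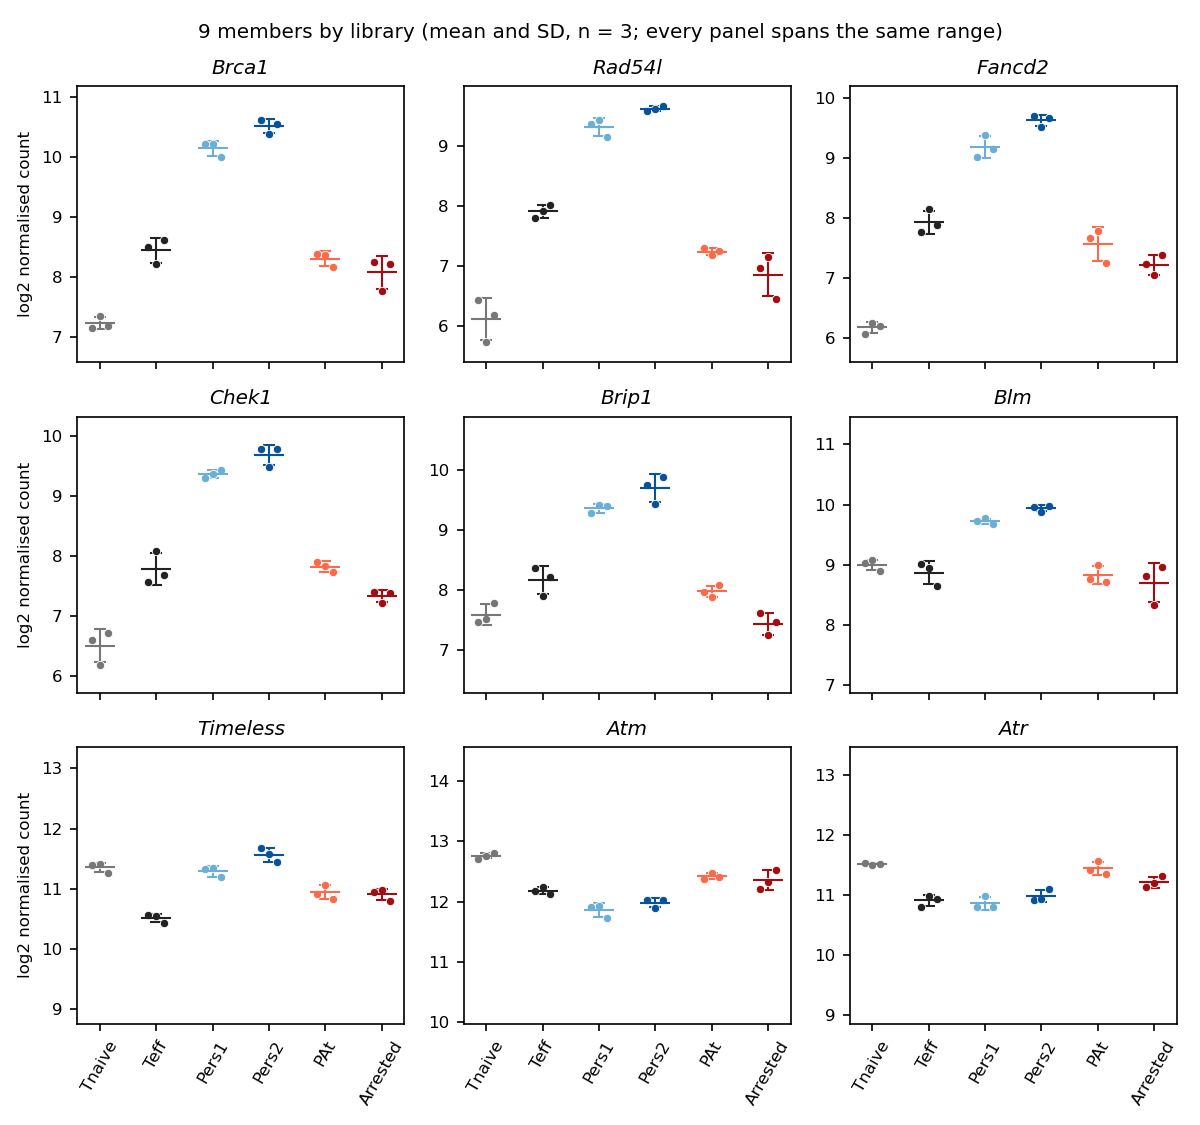
Values of 9 members in every library (points), with the population mean and SD (n = 3), on the log2 normalised count scale with the same span in each panel. Brca1, Rad54l, Fancd2, Chek1, Brip1 and Blm are highest in Pers1 and Pers2, Timeless is lowest in Teff, and Atm is highest in Tnaive.

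The second comparison puts activated Teff against Tnaive, both GFP- Timer- cells, with no library in common with the first. It splits cells by CD44, where the first splits Timer+ cells by Timer colour, so the 2 do not ask the same question. PAt and Arrested are not a naive baseline, with Mki67 between 11.46 and 11.76, against 8.46 to 8.50 in Tnaive. Here 7 of the 41 members were called higher and 0 lower, against 8.88% and 2.28% of all genes. The 7 were Rad51ap1 (1.80, SE 0.158), Rad54l (1.79, SE 0.161), Fancd2 (1.75, SE 0.138), Rad54b (1.51, SE 0.152), Exo1 (1.35, SE 0.160), Chek1 (1.27, SE 0.139) and Brca1 (1.21, SE 0.128), and all 7 are among the 17 of the first comparison. The median over the members was 0.23, against 0.00 over all genes. At an unadjusted p under 0.05, limma had 21 members upwards and 9 downwards, against 33.0% and 29.7% of all genes. The lowest was Timeless, at 11.40, 11.40 and 11.26 in Tnaive and 10.56, 10.55 and 10.42 in Teff, a log2 fold change of -0.84 (SE 0.074, adjusted p = 3.23e-09), or 0.557 times the Tnaive level. Atr followed with -0.61 (SE 0.072), Atm with -0.58 (SE 0.069) and Atrip with -0.40 (SE 0.085). Fanci, at -0.31 (SE 0.071), was negative where Fancd2 was positive.

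The Teff libraries hold markers of other cells. The summed log2 level of 6 macrophage or dendritic cell markers was between 11.7 and 12.1 in Teff and between 7.01 and 8.53 in all the others, and all 5 of those tested were higher in Teff than in Tnaive. Siglech, a marker of plasmacytoid dendritic cells, had a mean of 10.6 in Teff and 3.8 in Tnaive, while Cd14 was at 0.5 in every population. The 4 CD8 T or NK cell markers summed to between 11.6 and 12.1 in Teff and to between 9.79 and 10.7 elsewhere. The 6 B cell markers summed to between 11.5 and 12.2 in Teff and to between 9.49 and 9.91 in Tnaive. The part of these cells in the members' values was not tested.

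The fold changes of both comparisons were set against each other by a test of their difference in the same model. It was called for 5 members, all with a larger increase in the persistent populations, and for 0 the other way, against 1.52% and 6.90% of all genes. At an unadjusted p under 0.05, limma had 29 members with a positive and 1 with a negative difference, against 26.3% and 28.0% of all genes. Timeless had the largest difference, 1.35 (SE 0.091, adjusted p = 8.86e-11), made of 0.51 in the first comparison and -0.84 in the second. Brip1 differed by 1.25 (SE 0.163), from 1.82 and 0.57. Its Tnaive values were 7.47, 7.52 and 7.79 and its Teff values 8.37, 7.91 and 8.22, a difference under the threshold. Blm differed by 1.20 (SE 0.154), from 1.07 and -0.13. Bard1 differed by 1.19 and Eme1 by 1.03, and the last fell under the threshold without PAt replicate 3 (0.95), Teff replicate 2 (0.94) or Tnaive replicate 1 (0.92). Without Teff replicate 3 the number of members rose from 5 to 9, with Brca1 (1.01), Chek2 (1.00), Exo1 (1.03) and Rad51c (1.02) added. Nbn had the largest difference downwards, -0.75 (SE 0.098, adjusted p = 1.91e-06), under the threshold. For Fancd2 the difference was 0.26 (adjusted p = 0.227) and for Rad51ap1 it was 0.47 (adjusted p = 0.0509), so no difference was shown for either.

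**Figure D3:**
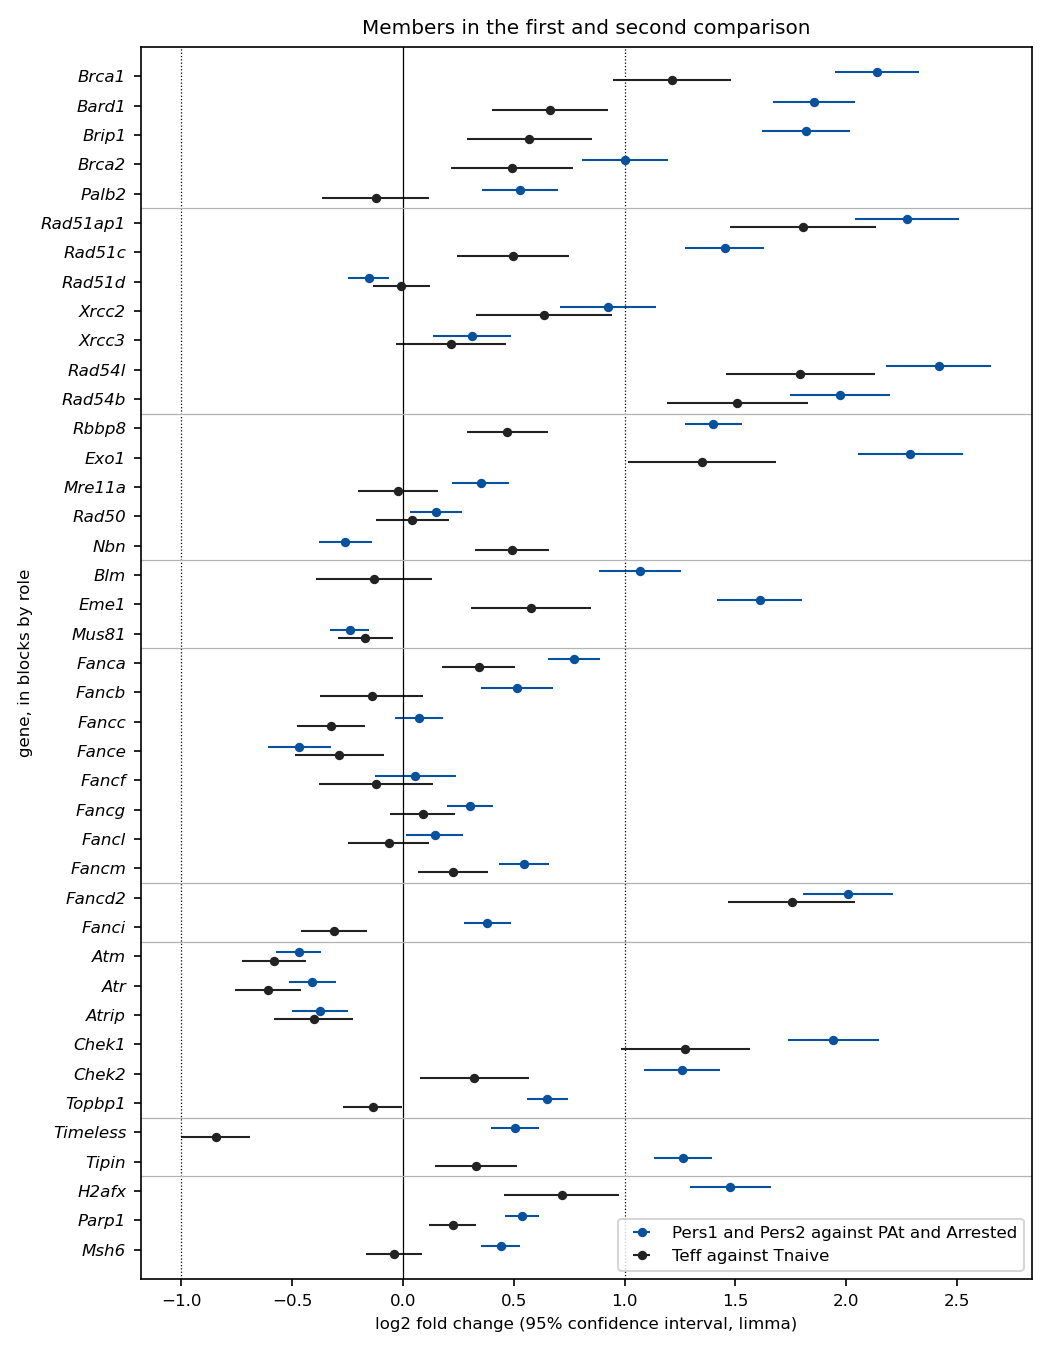
Log2 fold change of each member with its 95% confidence interval from limma, for Pers1 and Pers2 against PAt and Arrested (blue) and for Teff against Tnaive (black), in blocks by role. Dotted lines mark the threshold of 1, which 17 blue and 7 black points exceed on the right and none on the left.

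The remaining comparisons share libraries with these and with each other. Against Teff, 11 members were called higher in Pers1 and Pers2 and 0 lower (4.28% and 4.03% of all genes), led by Brca1 (1.89, SE 0.111), Exo1 (1.81) and Chek1 (1.75). Nbn had -0.79 (SE 0.069) there, the lowest of the members. An unadjusted p under 0.05 was reached in limma by 32 members upwards and 5 downwards, against 31.6% and 30.8% of all genes. Against Tnaive, 4 members were called higher in PAt and Arrested and 0 lower (6.63% and 1.27% of all genes), and 13 and 9 had an unadjusted p under 0.05 in limma, against 29.2% and 26.9% of all genes. Those called were Fancd2 (1.22, SE 0.119), Rad51ap1 (1.20), Rad54b (1.15) and Chek1 (1.08), and Chek1 fell to 0.92 without Tnaive replicate 2. Brca1 had 0.96 (SE 0.111) there and passed the threshold without Arrested replicate 2 (1.04) or Tnaive replicate 2 (1.02), as did Rad54l without Arrested replicate 3 (1.04) or Tnaive replicate 1 (1.09). Against Teff, PAt and Arrested had 0 members called in either direction, where 2.84% and 4.04% of all genes were called, and limma gave an unadjusted p under 0.05 for 6 members upwards and 19 downwards, against 27.3% and 30.4% of all genes. The median over the members was -0.17, and the lowest was Rad54l with -0.86.

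Within each pair of populations no member was called. Between Pers2 and Pers1, 0 members were called either way, against 0.144% and 0.0455% of all genes. The log2 fold change was above 0 in 36 of 41 members and in 6648 of the 13190 genes tested, with a median of 0.17 against 0.00 for all genes. Limma gave an unadjusted p under 0.05 for 14 members upwards and 1 downwards, against 12.8% and 11.2% of all genes. In 21 members every Pers2 library lay above every Pers1 library and in 2 every one lay below, against 16.8% and 15.0% of all genes. Palb2 had the highest, 0.45 (adjusted p = 0.0159), and Mus81 the lowest, -0.21 (adjusted p = 0.0234). Between Arrested and PAt, 0 were called as well, against 0.0455% and 0.0758% of all genes. The log2 fold change was below 0 in 31 of 41 members and in 6903 of the 13190 genes, with a median of -0.08, and limma's unadjusted p was under 0.05 for 0 upwards and 10 downwards, against 7.92% and 10.2% of all genes. In 0 members every Arrested library lay above every PAt library and in 7 every one lay below, against 7.84% and 10.1% of all genes. Brip1 had -0.54 (adjusted p = 0.0209) and Chek1 -0.49 (adjusted p = 0.0461), with Chek1 at 7.90, 7.84 and 7.72 in PAt and 7.40, 7.22 and 7.39 in Arrested. By population mean, Pers2 was the highest for 31 of the 41 members and Tnaive the lowest for 16, followed by Arrested for 9. The same counts were not made over all genes, so whether they are particular to the members was not tested.

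Genes whose products work as partners were compared within each library, by the difference of their log2 values, for 16 pairs in the first comparison. Since the level of a gene also depends on its length, only the change of that difference is given. The exact permutation test over all assignments of the 12 libraries cannot give a p below 0.00216. With assignments kept within a replicate number, that limit is 0.00926. The libraries of each side come from 2 populations, so the SDs given here also hold any difference between those populations. After adjustment 13 pairs passed 0.05, and in 5 of them the partners also differed by over 1. Of all genes taken singly, 70.9% passed an adjusted p of 0.05 in limma in this comparison. Pairs of genes that are not partners were not examined, so whether these counts are particular to partners was not tested. Eme1 rose by 1.85 relative to Mus81, where the SD of the difference was 0.162 in the persistent and 0.212 in the PAt and Arrested libraries (n = 6 each). Fancd2 rose by 1.63 relative to Fanci (SD 0.156 and 0.249). Rad51c rose by 1.14 relative to Xrcc3 (SD 0.0855 and 0.263), its partner in the CX3 complex. For Rad51d relative to Xrcc2 the difference of log2 values changed by -1.08 (SD 0.145 and 0.160). Topbp1 rose by 1.06 relative to Atr (SD 0.0947 and 0.102). All 5 had the smallest p that the exact permutation test allows, but so did 9 of the 16 pairs in all. What sets the 5 apart is therefore the size of the difference and not the p. Exo1 relative to Rbbp8 (0.89) and Nbn relative to Rad50 (-0.41) had the same p with a difference under 1.

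Pairs that were not shown to differ were Atr and Atrip (-0.03, exact permutation p = 0.699), Atr and Atm (0.06, exact permutation p = 0.340), and Brca1 and Bard1 (0.28, exact permutation p = 0.0909). For Atr and Atrip the SD of the difference was 0.160 in the persistent and 0.156 in the PAt and Arrested libraries, several times the change. Chek1 stood at 0.68 relative to Chek2 and Timeless at -0.76 relative to Tipin, both past the adjusted threshold on p but under a difference of 1.

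**Figure D4:**
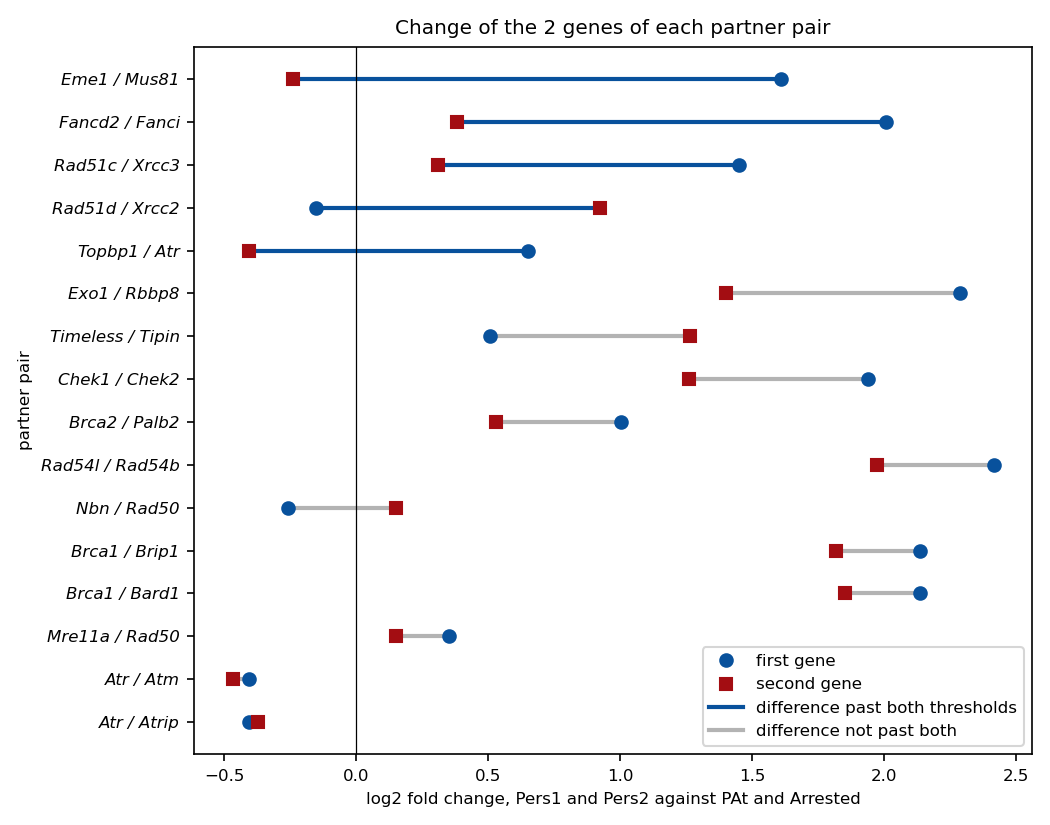
Log2 fold change in Pers1 and Pers2 against PAt and Arrested for both genes of each of the 16 partner pairs, the first gene as a circle and the second as a square, ordered by the size of the difference. Blue lines mark the 5 pairs past both thresholds, from Topbp1 and Atr (1.06) to Eme1 and Mus81 (1.85), and grey lines the others.

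Other genes of the same and neighbouring pathways were read from further lists. In the first comparison, 4.74% of all genes tested were called higher and 2.77% lower. Of 33 other homologous recombination and Fanconi genes, 8 were called higher and 0 lower, with a median of 0.23, among them Fignl1 (2.71). At the low end were Fam175a (-0.51) and the nuclease Ercc4 (-0.39). Of 17 other damage checkpoint genes, 4 were called higher, with Clspn, the adaptor through which ATR reaches CHK1, at 2.57 and the mitotic phosphatase Cdc25c at 2.25. Mdc1, which binds phosphorylated H2AX, had -0.86 (SE 0.041, adjusted p = 8.21e-14), and Trp53bp1, which shields breaks from resection, had -0.10.

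None of the 10 end joining genes was called, with a median of -0.03 and a range from Prkdc (-0.28) to Xrcc6 (0.38). At the shares over all genes, 4.74% higher and 2.77% lower, a list of 10 may well hold none. Of 16 mismatch and base excision repair genes 4 were called higher, led by Neil3 (2.28) and the ligase Lig1 (2.09), with Mlh3 (-0.35) and Xrcc1 (-0.29) lowest. Of the 19 p53 target genes tested, Cdkn1a, an inhibitor of cyclin-dependent kinases, rose by 1.41 and Plk2 had -1.60, the only ones called. The calls in this list are thus near the shares over all genes. Pmaip1 (0.79) and Bbc3 (-0.88), which promote cell death, had opposite signs. Among 30 DNA replication genes 24 were called higher, with a median of 1.48, from Tyms (0.18) and Gins4 (0.49) to Cdc6 (2.94) and Rrm2 (3.29). All 22 mitosis genes were called higher, with a median of 2.79, from Kif20a (1.44) and Ndc80 (1.85) to Cdk1 (3.02) and Ccnb1 (3.10).

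The medians of the lists in the second comparison stand beside these. In Teff against Tnaive the median was 2.80 for the mitosis genes, 0.48 for the DNA replication genes and 0.23 for the 41 members. Of these lists, 20 of 22, 10 of 30 and 7 of 41 were called higher, against 8.88% of all genes. The median difference between the 2 comparisons was 0.04 for mitosis, 0.92 for DNA replication and 0.47 for the members, with -0.01 for all genes tested.

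**Figure D5:**
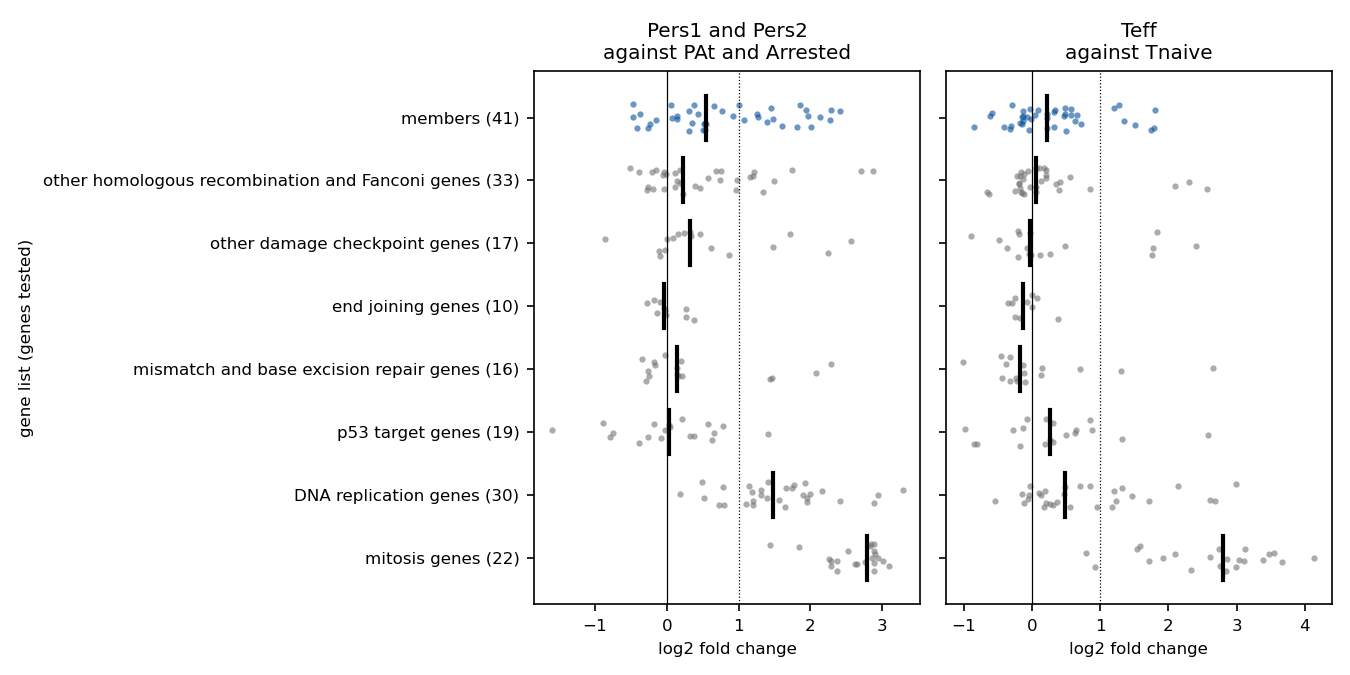
Log2 fold change of the genes of each list (points, with the number of genes tested in parentheses) and the list's median (black bar), for Pers1 and Pers2 against PAt and Arrested (left) and Teff against Tnaive (right). The mitosis genes have medians of 2.79 and 2.80, while the 41 members have 0.55 and 0.23 and the DNA replication genes 1.48 and 0.48.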

How the data were processed

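RNA-seq was done on 18 libraries of 6 sorted T-cell populations, with 3 replicates each. The authors prepared stranded mRNA libraries, sequenced them as paired ends on a HiSeq and aligned the reads to mm10, and the submitters' processing notes name CASAVA 1.8.2, FastQC 0.11.2, TopHat2 2.0.9 and DESeq2. The counter, its annotation and its use of strand are not given in the sources used here. As deposited, the table holds normalised counts on a log2 scale for 15402 genes, between -0.02 and 18.89. They look like the regularised log values that the authors' DESeq2 gives, which shrink the changes of genes with few reads. The depth of the libraries cannot be read from them, so errors come from the replicates alone.

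The 13190 genes with a mean of at least 3 were tested with limma 3.58.1 in R 4.3.3, in 1 model of the 6 populations over all libraries (12 residual degrees of freedom), with a variance trend. Adjusted p-values of single genes are limma's, by Benjamini and Hochberg over all genes tested. Genes were called at an adjusted p under 0.05 and a log2 fold change over 1 in size, and 2212 genes were not tested. Partner pairs were tested by two-sided exact permutation. On simulated data with 200 of 13190 genes changed by 2 in the first comparison, 200 were recovered with 1 false call. The simulated noise was independent between libraries and the change was well past the threshold of 1. It therefore checks the code only, and not calls near the threshold. The members, the other gene lists, the partner pairs and the motifs were chosen with earlier results of these data known. Values of each library are given for the 6 highest and 6 lowest members of the first comparison, the 3 with the largest difference between the first and second comparison, and the partner pairs called unequal. Other lists are represented by their 2 highest and 2 lowest genes. The result of 1 gene named by that rule is not reported here. Gene models were from GENCODE vM21.

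Replicate numbers may mark a shared pool, since the labels have every population sorted from each mouse, but they do not tie a number to a pool outright. Deviations from the population means correlated with a median r of 0.166 over 45 pairs of libraries that share a number (-0.206 to 0.436, with 32 over 0.1), and of -0.064 over 90 pairs that do not. Neither the model nor the permutation tests had a replicate block, which was run as an alternative.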

Additional observations from a re-analysis of the deposited data

Results flagged for a closer look

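The fold change of Pers1 and Pers2 against PAt and Arrested differed from that of Teff against Tnaive in 5 of the 41 members, by limma's test of the difference. The differences were 1.35 for Timeless, 1.25 for Brip1, 1.20 for Blm, 1.19 for Bard1 and 1.03 for Eme1, all larger in the Timer+ cells. Of these, Timeless and Blm had opposite signs in the 2 comparisons, though the -0.13 of Blm in Teff had an adjusted p of 0.389. The 2 comparisons use different gates and baselines, and the Teff libraries carry macrophage, dendritic and other cell markers. The part of either in these differences was not tested.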

How the results depend on the processing

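The largest effect came from the threshold on the fold change. Without it, in limma, Pers1 and Pers2 against PAt and Arrested had 32 members higher and 7 lower, with 21 and 8 in Teff against Tnaive, 32 and 5 in Pers1 and Pers2 against Teff, 10 and 8 in PAt and Arrested against Tnaive, and 6 and 17 in PAt and Arrested against Teff. There were 7 and 1 in Pers2 against Pers1, 2 lower in Arrested against PAt, and 27 and 1 in the difference between the first and second comparison, and 13 partner pairs were unequal. Of all genes tested, 70.9% passed in either direction in the first comparison, 48.7% to 59.0% in the next 4 and in the difference, 10.6% in Pers2 against Pers1 and 5.04% in Arrested against PAt. Leaving out 1 library at a time gave 4 to 9 members called higher in that difference, with 9 reached without Teff replicate 3. For the first comparison it gave 15 to 17, the lowest without Arrested replicate 2, where Blm and Brca2 were no longer called. With the replicate block, the first comparison had 17 members called higher and the partner pairs 5, and it changed no call. Centring each library on its median moved the median of all genes from -0.01 to -0.08 in the first comparison and left 16 of the 17 members, without Brca2. It also took Chek1 from the members called in PAt and Arrested against Tnaive. The filters on low values, the fit of only the compared populations and the fit without a variance trend kept the same members in the first comparison. Read depth is unknown, so small changes of weakly expressed genes could not be weighed, and with 3 libraries a population the p-values measure the spread between pools.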
